A study of Mus musculus with 4 samples.

Results

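Zinc transporters and metallothioneins were measured in mouse pancreatic islets, which hold the insulin-secreting beta cells, after treatment with a glucokinase activator. The members were the genes Mt1, Mt2, Slc30a1, Slc30a5, Slc30a7, Slc30a8, Slc39a6, Slc39a7, Slc39a10 and Slc39a14, found by their gene name in the authors' deposited table. They were 10 of the 26265 genes on the array, with 12 probes. All 10 were among the 17178 genes tested, and each was well above background on all 4 arrays. Compounds of the class, named here by the labels' term GKA, raise the activity of glucokinase, the enzyme that starts glucose use in beta cells. Islets isolated from 8-week-old C57BL/6 mice were kept in medium with 5.6 mM glucose. The GKA group (2 samples) received 30 µM GKA and the vehicle group (2 samples) received DMSO, both for 24 h. The labels name no genotype other than the strain. Neither pooling of islets from several mice nor separate cultures for each sample is stated, so p-values reflect the spread among these arrays alone, and that spread could be technical.

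Zinc moves across membranes through a pair of protein families. Members of the Slc30 family (ZnT proteins) carry zinc out of the cytosol, either out of the cell or into organelles. Members of the Slc39 family (ZIP proteins) carry it into the cytosol, from outside the cell or from organelles. Metallothioneins are small cysteine-rich proteins that bind zinc and copper in the cytosol, and their genes are induced by metals through the zinc-sensing transcription factor MTF1. Beta cells hold much of their zinc in insulin granules, where ZnT8, the product of Slc30a8, loads it and insulin is stored with it in crystals.

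Each value below is a log2 signal relative to the 75th percentile of its array, so a value of 0 lies at that percentile. That percentile was an intensity of 557 and 598 on the GKA arrays and 751 and 755 on the vehicle arrays, and 59.7% to 63.5% of 39429 probes per array were well above background. Levels of different genes are not compared as amounts of RNA, since each probe has its own brightness. Sums over a list below are sums of probe signals, in which the brightest probes weigh most. Differences are GKA minus vehicle from limma, a linear model fitted across all genes, with Benjamini-Hochberg adjustment and a threshold of 0.05. Of the 17178 genes tested, 9.11% were higher and 8.01% lower at this threshold. At an unadjusted p under 0.05 in limma, 3128 of them were higher and 3080 lower.

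The islet markers were present: all 8 beta-cell markers and all 7 markers of alpha, delta and PP cells were tested. Of the beta-cell markers, G6pc2 (1.94), Pdx1 (1.11) and Mafa (1.06) rose, 0 fell and 5 did not pass. Among all genes tested, 9.11% were higher and 8.01% lower. At an unadjusted p under 0.05 in limma, 6 of the 8 were higher and 0 lower, against 3128 higher and 3080 lower of all 17178 genes. The median log2 fold change of the beta-cell list was 0.58. Its summed scaled signal was 1376 to 1413 on the GKA arrays and 1116 to 1118 on the vehicle arrays. Most of that sum came from Ins1 (0.31), Ins2 (0.25) and Iapp (0.27), which did not pass. The markers of alpha, delta and PP cells all lay above 0 too, with a median of 0.31. Their summed signal was 1202 to 1288 on the GKA arrays and 990 to 1002 on the vehicle arrays. Of 7 leukocyte markers, Lyz2, Aif1, Emr1 (now Adgre1) and Ptprc fell. Itgam (0.41), Cd68 (0.39) and Csf1r (0.079) lay above 0 and did not pass. The median over the list was -0.46, with a summed signal of 6.17 to 6.44 on the GKA arrays and 6.10 to 6.77 on the vehicle arrays. Most of that sum came from Itgam and Csf1r. Ptprc lay at 0.051 with normexp background correction and the 75th percentile. All 6 fibroblast and stellate cell markers lay below 0, with a median of -0.36 and a summed signal of 4.51 to 5.03 on the GKA arrays and 6.23 to 7.80 on the vehicle arrays, and Col1a2 (-0.87) fell. In other lists, Sst of delta cells (0.83), Spp1 of duct cells (2.26), Cdh5 of endothelial cells (0.63) and Tubb3 of neural cells (1.05) rose, while Krt7 of duct cells (-0.79) and Emcn of endothelial cells (-0.76) fell. The acinar markers Cpa1 and Pnlip, the duct marker Cftr and the red blood cell marker Alas2 were not well above background on any array. The summed acinar signal was at least 8.38 on both GKA arrays and at most 3.94 on both vehicle arrays, and most of it came from Bhlha15. That marker had 2.97 and 3.09 on the GKA arrays, against 1.73 and 1.58 on the vehicle arrays. Of 6 acinar markers only Bhlha15 (1.37) passed, and the list's median was -0.036. Cel (0.25) and Rbpjl (0.028) lay above 0, and Cela1 (-0.40), Amy2a5 (-0.36) and Ctrb1 (-0.10) lay below. Of the markers named here that passed, G6pc2, Lyz2, Spp1 and Bhlha15 did so whichever 1 array was left out, and the other 11 did not pass without GKA replicate 1 or without GKA replicate 2 (adjusted p between 0.0536 and 0.186). Krt7 and Emcn also did not pass without vehicle replicate 1, and Emr1, Ptprc and Cdh5 without either vehicle array. Whether these cell markers had a part in the zinc results was not tested, and in these bulk samples fewer cells of a type and less RNA per cell cannot be told apart.

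The 250 bases before the annotated gene start are shown for the metallothionein genes and for the transporter genes among the members that passed the test. They show where the core of the metal response element, the site that MTF1 binds, occurs. It occurs there for Mt1, Mt2 and Slc30a1, and not for Slc39a10, Slc30a7 or Slc39a7. Slc39a10 has 2 annotated starts, and the first listed is shown. The sequences are RefSeq's for build GRCm38.p6, 5′ to 3′ on the gene's strand, and capitals mark the core on either strand, TGCACNC or TGCGCNC.
Mt1, chr8:94178839-94179088, plus strand: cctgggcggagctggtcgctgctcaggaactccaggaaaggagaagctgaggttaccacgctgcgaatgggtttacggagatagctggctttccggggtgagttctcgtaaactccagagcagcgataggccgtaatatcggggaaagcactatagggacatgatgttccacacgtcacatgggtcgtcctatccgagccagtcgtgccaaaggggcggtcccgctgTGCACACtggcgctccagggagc
Mt2, chr8:94172368-94172617, plus strand: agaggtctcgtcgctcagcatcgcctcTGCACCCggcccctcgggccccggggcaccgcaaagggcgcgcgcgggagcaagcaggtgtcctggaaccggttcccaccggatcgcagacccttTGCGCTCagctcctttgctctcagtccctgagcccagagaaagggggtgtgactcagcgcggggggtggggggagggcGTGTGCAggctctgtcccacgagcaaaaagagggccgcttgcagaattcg
Slc30a1, chr1:191906531-191906780, plus strand: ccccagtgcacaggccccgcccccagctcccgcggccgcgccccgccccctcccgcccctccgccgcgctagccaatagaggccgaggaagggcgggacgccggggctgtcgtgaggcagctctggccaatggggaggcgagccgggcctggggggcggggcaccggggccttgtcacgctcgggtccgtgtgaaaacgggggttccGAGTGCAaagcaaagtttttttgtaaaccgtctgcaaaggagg
Slc39a10, chr1:46925777-46926026, minus strand: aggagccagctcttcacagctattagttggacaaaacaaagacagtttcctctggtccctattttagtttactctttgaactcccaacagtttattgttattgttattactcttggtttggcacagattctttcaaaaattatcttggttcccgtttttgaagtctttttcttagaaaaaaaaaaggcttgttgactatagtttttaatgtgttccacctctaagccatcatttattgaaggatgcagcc
Slc30a7, chr3:116007407-116007656, minus strand: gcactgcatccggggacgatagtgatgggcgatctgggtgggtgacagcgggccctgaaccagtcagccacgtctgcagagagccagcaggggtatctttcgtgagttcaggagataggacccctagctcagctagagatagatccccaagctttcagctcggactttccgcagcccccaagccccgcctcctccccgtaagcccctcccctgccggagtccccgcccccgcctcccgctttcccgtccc
Slc39a7, chr17:34031691-34031940, minus strand: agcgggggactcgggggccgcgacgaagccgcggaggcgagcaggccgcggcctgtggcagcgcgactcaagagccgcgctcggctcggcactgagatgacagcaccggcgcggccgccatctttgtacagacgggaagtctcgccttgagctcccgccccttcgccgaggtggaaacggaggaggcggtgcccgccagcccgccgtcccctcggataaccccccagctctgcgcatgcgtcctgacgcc

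The window searched also took in 50 bases after the start, and the RefSeq table held windows for 7 of the 10 members. The metal response element core matched 4 times in the window of Mt2 (3 of them before the start), 3 times in that of Mt1 (1 before the start), 2 times in that of Slc30a1 (1 before the start) and once in that of Slc30a5, at positions -48 to -42. The windows of Slc30a7, Slc39a7 and both annotated starts of Slc39a10 held no match. Of 32851 windows of all genes, 25.7% held at least 1 match, 7.11% at least 2 and 1.97% at least 3. The antioxidant response element core TGACNNNGC, a site of the stress factor NRF2, matched once each in the windows of Mt2, Slc30a1 and Slc30a5 and in 12.4% of all windows. Matches were searched on both strands, no match of 1 motif overlapped another in a member's window, and a match is only a description of the letters.

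Of the 10 members, the surface importer gene Slc39a10, the Golgi transporter gene Slc30a7 and the endoplasmic reticulum transporter gene Slc39a7 rose with GKA, and the surface exporter gene Slc30a1 fell. The other 6 members, Mt1, Mt2, Slc30a5, Slc30a8, Slc39a6 and Slc39a14, did not pass. None of the 4 calls held in a fit that kept all dim probes (adjusted p of at least 0.0744). The 4 calls among 10 members compare with 17.1% of all genes tested: 3 of 10 were higher, against 9.11% of all genes, and 1 of 10 lower, against 8.01%. The 2 GKA arrays lay on 1 side of the 2 vehicle arrays for 8 of 10 members, against 65.9% of all genes. They lay above for 6, against 32.4% of all genes, and below for 2, against 33.5%. The median log2 fold change was 0.45 over the members and -0.013 over all genes. In the plot of members by array, the GKA points of Slc30a7 and Slc39a7 lie together and well above the vehicle points, those of Slc30a1 lie below, and those of Slc30a8 and Mt1 are mixed with the vehicle points.

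**Figure D1:**
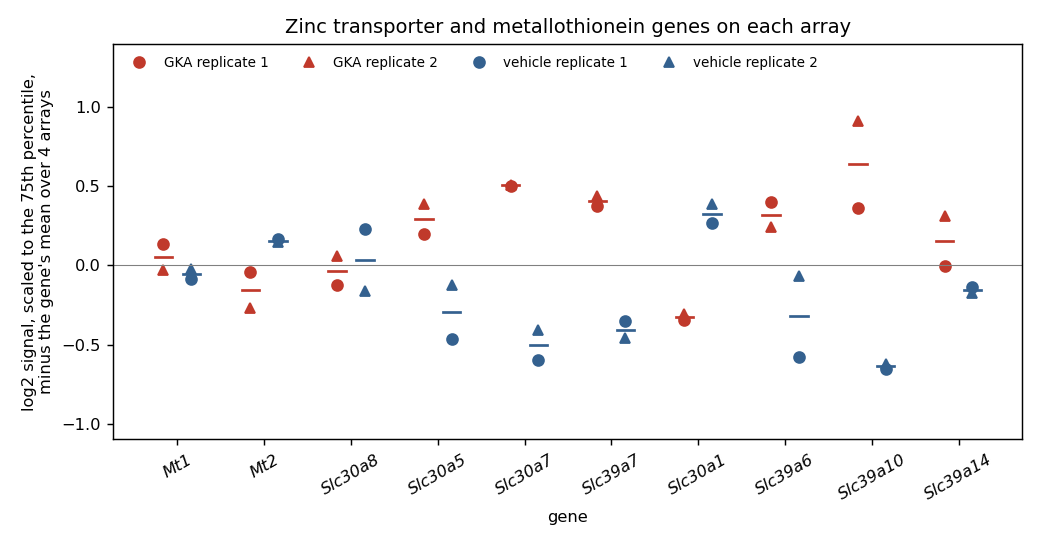
Log2 signal of each of the 10 genes on each array, scaled to the array's 75th percentile and given relative to the gene's mean over the 4 arrays (vertical axis). Red marks are the 2 GKA arrays, blue marks the 2 vehicle arrays, and short lines the group means. The groups do not overlap except for Mt1 and Slc30a8, and only Slc30a1 and Mt2 lie lower with GKA among the genes whose groups do not overlap.

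The metallothionein genes Mt1 and Mt2 are neighbours on chromosome 8, where their probes lie 6734 bases apart on build mm9 (96704165 to 96704224 for Mt1 and 96697371 to 96697430 for Mt2). Mt1 had a log2 signal of 8.42 and 8.25 on the GKA arrays, against 8.19 and 8.26 on the vehicle arrays. The groups overlapped, and the log2 fold change of Mt1 was 0.11 ± 0.12 (SE; 95% interval -0.20 to 0.42; adjusted p = 0.561 in limma). Mt2 had 8.70 and 8.48 on the GKA arrays, against 8.91 and 8.89 on the vehicle arrays. Both GKA arrays were lower, but Mt2 did not pass, at -0.31 ± 0.13 (95% interval -0.64 to 0.014; adjusted p = 0.150). It did pass without scaling (-0.70, adjusted p = 0.0103), with spike-in scaling (-0.80, adjusted p = 0.0137) and with normexp and quantile normalization (-0.50, adjusted p = 0.0131). Mt1 lay at -0.28, -0.38 and -0.092 with these 3 scalings and did not pass with any of them. The median of all genes was -0.40, -0.50 and -0.013 in the same order. With spike-in scaling, Mt1, Mt2, Slc30a1 and Lrg1 all had an SE of 0.27. The p-values of that fit thus do not reflect each gene's own spread.

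A difference between both genes within an array does not change with any scaling by 1 number per array. The log2 signal of Mt2 minus that of Mt1 was 0.29 and 0.23 on the GKA arrays, against 0.72 and 0.64 on the vehicle arrays. The groups did not overlap. For values of single genes that held for 65.9% of all genes tested, and no share was computed for differences between genes. The means differed by -0.42. This difference was not tested. The brightest spots of these genes reached 26.8% and 26.2% of the scanner's saturation value on the GKA arrays and 36.9% and 37.0% on the vehicle arrays, and no spot was marked as saturated. The probe sequences were not used here, so any signal that the probes of these related genes share cannot be told apart. In the authors' deposited table, which is not scaled between arrays, the ratio of GKA over control was 0.826 for Mt1 and 0.618 for Mt2.

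Slc30a1 encodes ZnT1, the main exporter of zinc across the plasma membrane and, like the metallothionein genes, a target of MTF1. Its log2 signal was -0.34 and -0.31 on the GKA arrays, against 0.27 and 0.39 on the vehicle arrays. Every GKA value was below every vehicle value, by more than the spread within either group (SD 0.026 for GKA and 0.086 for vehicle, n = 2 each). Slc30a1 fell by 0.65 ± 0.12 on the log2 scale, or 1.57-fold lower (adjusted p = 0.0247 in limma), and 84.6% of all genes changed by less. Its probe lies on chromosome 1 at 193736760 to 193736819 (mm9). The value was between -0.71 and -0.59 when 1 array was left out, with adjusted p = 0.106 in limma without GKA replicate 1, 0.104 without GKA replicate 2 and 0.0546 without vehicle replicate 2.

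Of the genes for transporters of the Golgi and endoplasmic reticulum among the members, Slc30a7 and Slc39a7 passed and Slc30a5 did not. Slc30a7 encodes ZnT7, which carries zinc into the Golgi apparatus. It stood at 0.42 and 0.43 on the GKA arrays, against -0.68 and -0.49 on the vehicle arrays. The GKA arrays were nearly equal and both higher, and Slc30a7 rose by 1.01 ± 0.12, a 2.02-fold change (adjusted p = 0.0120 in limma). All 3 of its probes on chromosome 3 (between 115645002 and 115649601 on mm9) gave a rise, at 1.01, 0.84 and 0.83 in a fit over 24480 probes, where each passed (adjusted p = 0.0124, 0.0241 and 0.0281). Slc30a7 had adjusted p = 0.0580 without GKA replicate 1 and 0.0620 without GKA replicate 2, and with spike-in scaling it was 0.52 with adjusted p = 0.106.

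Slc39a7 encodes ZIP7, which releases zinc from the endoplasmic reticulum and Golgi into the cytosol. Its log2 signal was 6.36 and 6.42 on the GKA arrays, against 5.63 and 5.52 on the vehicle arrays. The groups were far apart relative to their spread, and Slc39a7 rose by 0.82 ± 0.12, or 1.76-fold (adjusted p = 0.0153 in limma; chromosome 17, 34165279 to 34165338 on mm9). Without GKA replicate 1 the adjusted p was 0.0679, without GKA replicate 2 it was 0.0810, and with spike-in scaling the value was 0.33 with adjusted p = 0.311.

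Slc30a5 encodes ZnT5, which forms a zinc-importing pair with ZnT6 in the Golgi and in vesicles. It stood at 1.32 and 1.51 on the GKA arrays, against 0.65 and 1.00 on the vehicle arrays. Both GKA arrays were higher, but the vehicle arrays were apart from each other (SD 0.24, n = 2), and Slc30a5 did not pass (0.59 ± 0.16, 95% interval 0.18 to 1.00, adjusted p = 0.0639 in limma). Slc30a5 passed in limma in 5 of the 15 alternatives tried. Among them were normexp with the 75th percentile (0.55, adjusted p = 0.0169) and normexp with quantile normalization (0.59, adjusted p = 0.0268). Without vehicle replicate 2 its value was 0.76. Slc30a6, which encodes the partner ZnT6 and was not a member, had -0.93 and -0.69 on the GKA arrays, against -1.51 and -1.60 on the vehicle arrays. It rose by 0.75 ± 0.14 (adjusted p = 0.0257 in limma). The call was lost when GKA replicate 1 was left out, at 0.87 with adjusted p = 0.0644, and when GKA replicate 2 was left out, at 0.62 with adjusted p = 0.113, and the value was 0.36 in unscaled signals and 0.26 with spike-in scaling.

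Slc30a8, the beta-cell gene of the granule transporter ZnT8, stood at 4.64 and 4.82 on the GKA arrays, against 4.99 and 4.60 on the vehicle arrays. The groups overlapped, with the highest and the lowest value both among the vehicle arrays, and the log2 fold change was -0.067 ± 0.17 (95% interval -0.50 to 0.37; adjusted p = 0.809 in limma). It was 0.024 without GKA replicate 1, 0.13 without vehicle replicate 1 and -0.26 without vehicle replicate 2. Ins2, one of the insulin genes, did not pass either, at 0.25 ± 0.11 (adjusted p = 0.171). Within an array, the log2 signal of Slc30a8 minus that of Ins2 was -4.26 and -4.10 on the GKA arrays, against -3.70 and -4.02 on the vehicle arrays. The means differed by -0.32 with no overlap and no test, and no share over other pairs of genes was computed.

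**Figure D2:**
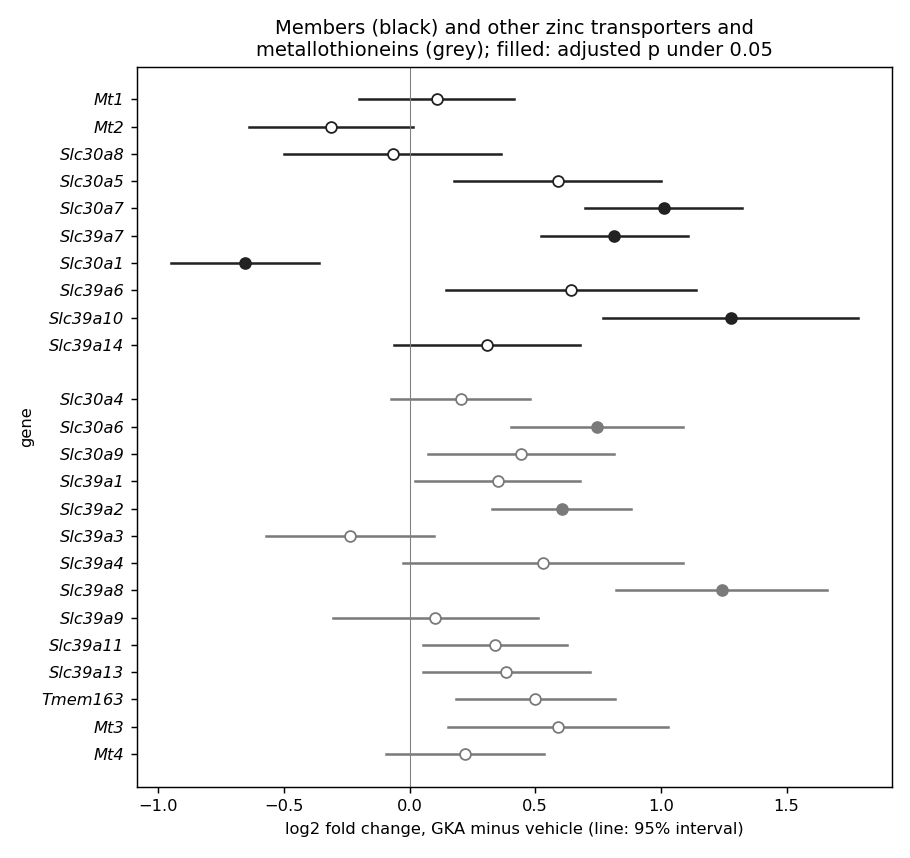
Log2 fold change, GKA minus vehicle (horizontal axis), of the 10 members (black, upper block) and of the 14 other zinc transporter and metallothionein genes tested (grey, lower block), with 95% intervals from limma as lines. Filled points passed at an adjusted p under 0.05: 4 members and 3 of the others. Among the members Slc30a1 alone passed below 0, and among the others only Slc39a3 has its point below 0.

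The importers of the cell surface were higher or did not pass. Slc39a10 encodes ZIP10, which brings zinc in across the plasma membrane. Its log2 signal was -2.31 and -1.76 on the GKA arrays, against -3.33 and -3.30 on the vehicle arrays. The GKA arrays were further apart than the vehicle arrays (SD 0.39 for GKA and 0.021 for vehicle, n = 2 each), and both were higher. Slc39a10 rose by 1.28 ± 0.20, or 2.42-fold (adjusted p = 0.0188 in limma; chromosome 1, 46865343 to 46865402 on mm9). This was the largest change among the members, larger than that of 96.7% of all genes. It was 1.00 without GKA replicate 2, with adjusted p = 0.0549, and 0.76 to 0.89 with no scaling, spike-in scaling or normexp background correction, where it passed.

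Slc39a6 encodes ZIP6, a surface importer closely related to ZIP10 (chromosome 18, 24738561 to 24738620 on mm9). It had 2.84 and 2.68 on the GKA arrays, against 1.86 and 2.37 on the vehicle arrays. Both GKA arrays were higher, but the vehicle arrays were apart from each other (SD 0.36, n = 2), and Slc39a6 did not pass (0.64 ± 0.20, 95% interval 0.15 to 1.14, adjusted p = 0.081 in limma). Slc39a6 passed in 4 of the 15 alternatives tried, and its value was 0.90 without vehicle replicate 2. Slc39a14 encodes ZIP14, which also carries iron and manganese and is induced in the acute-phase response of the liver. It stood at -1.20 and -0.88 on the GKA arrays, against -1.33 and -1.37 on the vehicle arrays. The GKA arrays were higher by little more than their own spread, and it did not pass (0.31 ± 0.15, 95% interval -0.06 to 0.68, adjusted p = 0.197). The sign turned without scaling (-0.076) and when spike-ins set the scale (-0.18).

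Of the 4 members that passed, Slc30a1 moved opposite to the others. The log2 signal of Slc30a7 minus that of Slc30a1 was 0.76 and 0.73 on the GKA arrays, against -0.95 and -0.88 on the vehicle arrays, a change of 1.67. For Slc39a10 minus Slc30a1, the values were -1.97 and -1.45 on the GKA arrays, against -3.60 and -3.69 on the vehicle arrays, a change of 1.93. The groups overlapped in neither, and no share over other pairs of genes was computed. Scaling by 1 number per array leaves both values as they are, but quantile normalization does not: with normexp and quantile, the log2 fold changes were 0.76 for Slc39a10, 0.92 for Slc30a7 and -0.59 for Slc30a1. No test is given, because the genes were chosen for their calls.

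**Figure D3:**
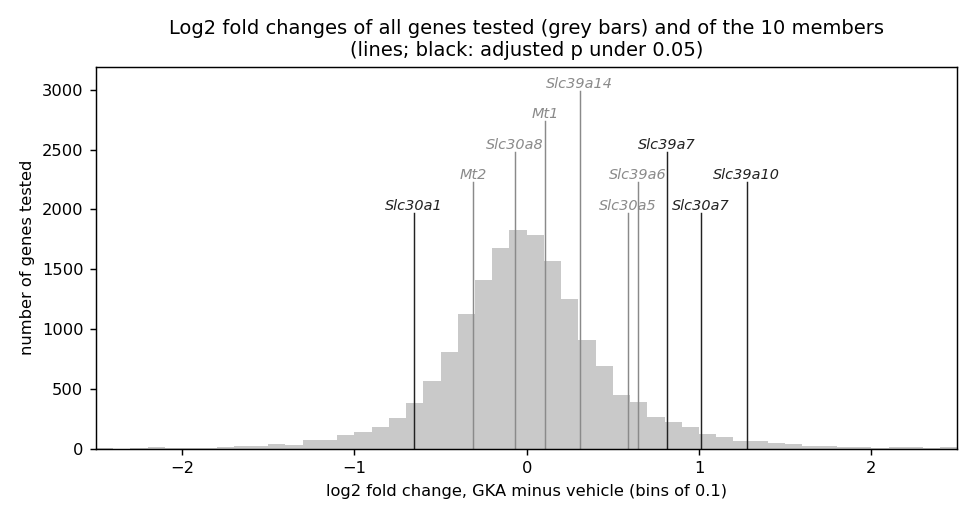
Number of genes (vertical axis) by log2 fold change, GKA minus vehicle, in bins of 0.1 (grey bars, 17178 genes; the axis is drawn from -2.5 to 2.5), with the 10 members as lines (black where the adjusted p was under 0.05). Slc30a1 lies between the 5th (-0.77) and 25th (-0.27) percentiles of all genes, and Slc30a7 and Slc39a10 lie above the 95th (0.88).

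The other genes of both transporter families, with Tmem163, a zinc-transporting membrane protein, and the tissue-restricted metallothionein genes Mt3 and Mt4, made a list of 19. Of these, 14 were tested, 3 rose, 0 fell and 11 did not pass in limma, against 9.11% higher and 8.01% lower among all genes. At an unadjusted p under 0.05, 9 were higher and 0 lower, against 3128 higher and 3080 lower of all 17178 genes. The median log2 fold change was 0.41, and for 12 of 14 both GKA arrays were above both vehicle arrays, against 32.4% of all genes. Besides Slc30a6, the surface importers Slc39a8 (ZIP8) and Slc39a2 (ZIP2) rose. Slc39a8 had -3.67 and -4.08 on the GKA arrays, against -5.11 and -5.12 on the vehicle arrays, a rise of 1.24 ± 0.17 (adjusted p = 0.0138). The dimmest probes called well above background lay at -5.91 and -5.96 on the vehicle arrays, and the change of Slc39a8 was 0.37 with normexp and quantile normalization, with adjusted p = 0.0709. Slc39a2 had -3.72 on both GKA arrays, against -4.33 on both vehicle arrays, a rise of 0.61 ± 0.11 (adjusted p = 0.0257). It did not pass when any 1 of the 4 arrays was left out (0.60 to 0.61, adjusted p between 0.0516 and 0.113), and it stood at 0.22 without scaling. Among genes that did not pass, Mt3 had a log2 fold change of 0.59 and the Golgi and vesicle exporter gene Slc30a4 had 0.20. Slc30a3, Slc30a10, Slc39a5 and Slc39a12 were not well above background on any array, and Slc30a2 was on 1 of the 4, a GKA array.

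The directions of both sets rest on the scaling. In unscaled signals the median log2 fold change was 0.064 for the members, 0.030 for the other zinc genes and -0.40 for all genes. With spike-in scaling these medians were -0.038, -0.072 and -0.50. Scaling by 1 number per array shifts all genes alike, so the gap between each set and the median of all genes could not change between these settings. The calls over all genes split into 1565 higher and 1376 lower with the 75th percentile, 750 and 7654 without scaling, and 468 and 6108 with spike-in scaling. In the plot of 6 scalings, Slc30a1 lies below 0 and passes in all 6, and Slc39a10 lies above 0 and passes in all 6. Slc30a7 and Slc39a7 lie above 0 in all 6 and pass in 5, the exception being spike-in scaling.

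**Figure D4:**
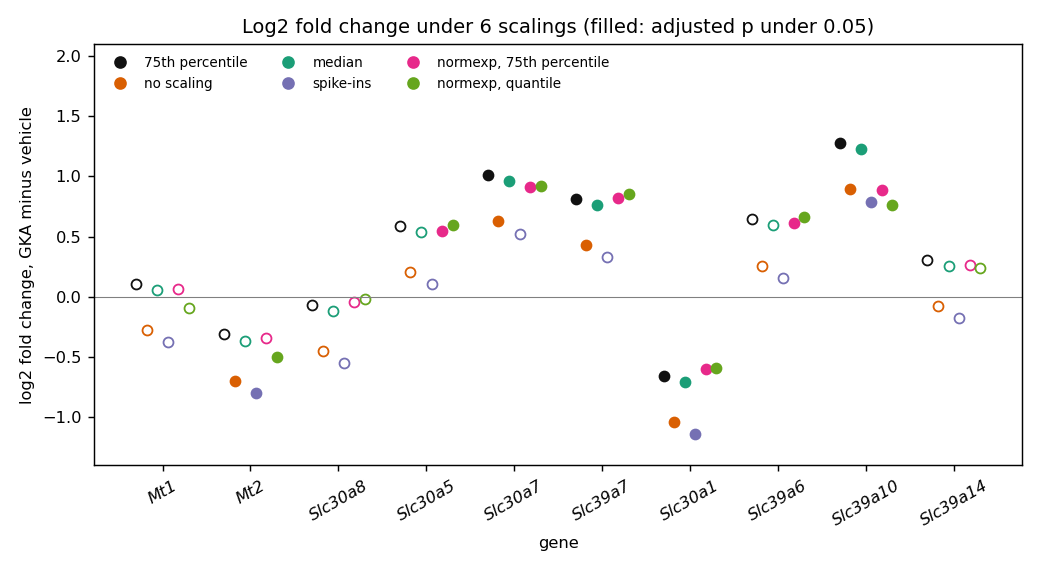
Log2 fold change, GKA minus vehicle (vertical axis), of each member under 6 ways of scaling the arrays (colours); filled points had an adjusted p under 0.05. Slc30a1, Mt2 and Slc30a8 lie below 0 and Slc39a10, Slc30a7, Slc39a7, Slc30a5 and Slc39a6 above 0 in all 6, while Mt1 and Slc39a14 change sign.

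MTF1, which senses zinc and drives the metallothionein genes and Slc30a1, was measured together with 6 genes reported to depend on it. Mtf1 itself did not pass, at 0.19 ± 0.11 (adjusted p = 0.281 in limma). Of the 7 genes, 1 rose and 2 fell, against 9.11% higher and 8.01% lower among all genes tested. The median of the 7 genes was -0.086. The selenoprotein gene Sepw1 (now Selenow) had 3.32 and 3.09 on the GKA arrays, against 4.65 and 4.33 on the vehicle arrays, and fell by 1.28 ± 0.16 (adjusted p = 0.0125). The selenoprotein gene 2700094K13Rik (now Selenoh) had 1.04 and 0.76 on the GKA arrays, against 2.29 and 1.93 on the vehicle arrays, and fell by 1.21 ± 0.18 (adjusted p = 0.0166). Both were lower on each GKA array than on any vehicle array, and both are also antioxidant genes that need selenium. Gclc, which encodes the catalytic subunit of glutamate-cysteine ligase and is also an NRF2 target, rose by 0.66 ± 0.12 (adjusted p = 0.0238), though without scaling it was 0.27 with adjusted p = 0.113. With GKA replicate 1 left out, Gclc (adjusted p = 0.0997) and 2700094K13Rik (0.0524) missed the threshold. With GKA replicate 2 left out, Gclc (adjusted p = 0.109), 2700094K13Rik (0.0767) and Sepw1 (0.0620) missed it, and with vehicle replicate 1 left out Gclc did (0.0684).

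Genes of other metals that share carriers or binding proteins with zinc were compared in the same fit. Among all 17178 genes in that fit, 9.11% were higher and 8.01% lower, with 3128 higher and 3080 lower at an unadjusted p under 0.05. Of 9 copper genes tested, 1 rose, 0 fell and 8 did not pass (2 higher and 1 lower at an unadjusted p under 0.05), with a median of 0.025. The copper importer Slc31a1 rose by 0.60 ± 0.12 (adjusted p = 0.0306), though it did not pass when any 1 array was left out (0.54 to 0.66, adjusted p between 0.0572 and 0.136), and it was 0.21 without scaling. Of 10 iron genes, 3 rose, 0 fell and 7 did not pass (5 higher and 0 lower at an unadjusted p under 0.05), with a median of 0.38, which was -0.0022 without scaling. The transferrin receptor gene Tfrc rose by 0.85 ± 0.16 (adjusted p = 0.0270), the iron-regulatory protein gene Ireb2 by 0.78 ± 0.12 (adjusted p = 0.0189) and the iron importer gene Slc11a2 by 0.64 ± 0.13 (adjusted p = 0.0331). The ferritin genes, which encode the iron store, did not pass, with Fth1 at 0.064 and Ftl1 at 0.25. Left-out arrays ended these calls: none of the 3 passed without GKA replicate 1 or without GKA replicate 2 (adjusted p of at least 0.0807), and without vehicle replicate 1 Tfrc (0.0613) and Slc11a2 (0.0930) did not.

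Metallothionein genes and Slc39a14 also respond to glucocorticoids or to acute-phase signals. Shares over all 17178 genes were 9.11% higher and 8.01% lower, with 3128 higher and 3080 lower at an unadjusted p under 0.05 in limma. Of 10 glucocorticoid-responsive genes, Per1 rose (0.81 ± 0.13, adjusted p = 0.0182) and Fkbp5 fell (-0.51 ± 0.12, adjusted p = 0.0447 in limma), and 8 did not pass, with a median of 0.29. That median was -0.094 without scaling and -0.048 without vehicle replicate 1. Fkbp5 did not pass when any 1 array was left out (adjusted p between 0.0587 and 0.167), nor did Per1, which is also a clock gene, when GKA replicate 1 (0.0824) or 2 (0.0853) was missing. Of 10 acute-phase genes, Lrg1 rose (3.61 ± 0.34, adjusted p = 0.00667), 0 fell and 9 did not pass (3 higher and 0 lower at an unadjusted p under 0.05). The median of the list was 0.52, and it was 0.0090 without vehicle replicate 1 and 1.15 without vehicle replicate 2. The median deviation of the acute-phase genes from their 4-array mean was 0.076 and 0.63 on the GKA arrays, against -0.89 and 0.068 on the vehicle arrays, so the vehicle arrays differed from each other in these genes. The part of this difference in the value of Slc39a14 was not tested, and Slc39a14 itself had an SD of 0.028 between the vehicle arrays (n = 2).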

How the data were processed

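Samples were labelled and hybridised to 1-colour Agilent mouse arrays, 1 array each. Agilent Feature Extraction gave each spot an intensity (linear, background subtracted, detrended), with version 10.7.3.1 per the file headers and version 9.1 per the submitters' processing notes. The authors did not scale it between arrays. The authors' deposited table gives 1 intensity per group and probe and the ratio of GKA over control, and its gene names were used. Its median ratio over all probes was 0.841.

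Here, each array's log2 processed intensities were centred on the 75th percentile of its probes. Controls and outlier-marked spots were dropped, and a probe's spots were averaged. A probe was kept if it was well above background on both arrays of either group, and the probe with the highest mean signal stood for a gene. The fit was made in limma version 3.58.1 (R version 4.3.3), two-sided, with 3.33 prior and 2 residual degrees of freedom. The number of arrays limits the precision. On simulated data for these 17178 genes, with 200 genes changed, 37.2% of genes changed 2-fold and 93.2% of genes changed 4-fold were recovered. False calls were 5.34%. In the data themselves 17.1% of genes were called, and recovery depends on the share of genes changed, so these shares need not hold for them. All arrays came from 1 slide and 1 scan, GKA at positions 3 and 4 and vehicle at positions 1 and 2. The effects of group and slide position thus cannot be told apart. The members and lists (other zinc genes, MTF1, copper, iron, glucocorticoid-responsive and acute-phase genes, cell markers) were chosen with earlier results of these data known. All members are named, and every gene of the pathway lists that passed. Probe coordinates are those of the authors' deposited table (mm9), and promoter windows are from RefSeq on GRCm38.p6. Alternatives in scaling, background correction, filter, probe choice, prior, replicate block and left-out arrays were tried. The files hold no mean spot signal, so normexp used the median spot signal.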

Additional observations from a re-analysis of the deposited data

How the results depend on the processing

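Each result was recomputed under 15 alternatives (Lyz2 under 14, since the filter on all 4 arrays removed it). Mean of a gene's probes, marked spots kept and median scaling kept every member on its side of the threshold. With arrays left out one at a time, 0 to 5 members were higher, 0 to 1 lower, 1 to 3 other zinc genes higher, 315 to 1523 of all genes higher and 206 to 1312 lower. Slc39a10, Slc30a7, Slc39a7 and Slc30a1 kept their direction in all 15. Without the filter on dim probes, where 26263 genes were tested, 0 members were higher and 0 lower, 0 other zinc genes were higher, and 156 of all genes were higher and 67 lower. Without scaling, 2 members were lower, 1 other zinc gene was higher and 1 lower, and 750 of all genes were higher and 7654 lower. With spike-in scaling, 1 member was higher and 2 lower, 1 other zinc gene was higher and 1 lower, and 468 of all genes were higher and 6108 lower. In that fit genes such as Mt1, Mt2, Slc30a1 and Lrg1 had the same SE, so its calls are not comparable with those of the main fit. With normexp and the 75th percentile, 5 members and 8 other zinc genes were higher, and 2990 of all genes were higher. With normexp and quantile normalization, 5 members were higher and 2 lower, and of all genes 1956 were higher and 2067 lower. With an intensity trend in the prior, 5 members and 5 other zinc genes were higher, and of all genes 2085 were higher and 2094 lower. The filter on all 4 arrays gave 4 members higher and 1 lower, 4 other zinc genes higher, and 1719 of all genes higher and 1570 lower. The sign changed for Mt1 (-0.28 without scaling, -0.38 with spike-in scaling, -0.092 with normexp and quantile and -0.28 in the log2 of the authors' deposited ratio), Slc39a14 (-0.076 without scaling, -0.18 with spike-in scaling and -0.061 in that ratio), Slc30a8 (-0.26 to 0.13 with 1 array left out, and 0.024 without GKA replicate 1) and Ptprc (0.051 with normexp and the 75th percentile). With the replicate number as a block, the same counts of members passed (3 higher, 1 lower), with 1014 of all genes higher and 902 lower. The block ended the calls of Slc30a6 (adjusted p = 0.0512), which left 2 other zinc genes higher, Tfrc (0.0568), Slc31a1 (0.0561), Fkbp5 (0.0728), Emr1 (0.0627), Ptprc (0.0720) and Cdh5 (0.0559), and of no other gene named here as passing. Deviations of same-numbered samples correlated with r = 0.075 across genes, and the numbers were not taken as pairs. The cause of these changes was not tested. Slides or scans could not be used as a block because there was only 1 of each.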
